A study of Mus musculus with 18 samples.

Results

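Group 2 innate lymphoid cells (ILC2) sorted from the lung were compared with mature ILC2 sorted from bone marrow, both from mice that lack CD45. The comparison rests on 3 lung libraries and 3 mature marrow libraries of the CD45 knockout (KO), 6 of the 18 libraries in the study. Its members are the gene entries outside chromosomes X and Y, 23652 of the 24781 in the count table, and 1858 of them had enough counts to be tested. The lung and mature marrow groups carried the genotype CD45 KO x Rag2 KO. Lung and mature marrow ILC2 of Rag2 KO mice with CD45, 3 libraries each, were the controls that show the tissue difference when CD45 is present. Every mouse thus lacked Rag2 and with it T and B cells. The other 6 libraries are immature marrow ILC2. They enter only through the choice of genes to test, the scaling and the shared estimate of the spread. A sample was 200 sorted cells by its label and 100 cells to a tube by the extraction text, and the labels give no age, sex, culture or pooling of the animals. Nothing says that the replicates came from separate mice, so p-values measure a spread between libraries that may be technical. It was pooled over the 6 groups and drawn towards that of all genes tested. The question is whether the difference between lung and marrow ILC2 persists without CD45.

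ILC2 are tissue-resident lymphocytes without rearranged antigen receptors that respond to alarmins such as IL-33 and make IL-5, IL-13, GM-CSF and amphiregulin. They arise in the bone marrow under GATA3 and RORα and settle in barrier organs, where chemokine receptors, integrins and CD69 govern entry and retention. CD45, encoded by Ptprc, is the receptor tyrosine phosphatase of blood cells and sets the activity of Src-family kinases. Immediate-early genes, such as the Fos, Jun, Egr and Nr4a families, are switched on within minutes of stimulation without new protein synthesis.

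Total counts were 68077, 106753 and 72735 in the lung CD45 KO libraries and 87335, 122250 and 116708 in the mature CD45 KO libraries. Levels are in CPM, counts scaled to the library's size, and a library without a count of a gene could still hold it at 27.9 to 41.7 CPM in single lung CD45 KO libraries and at 25.3 to 35.7 CPM in mature CD45 KO libraries, for counting error only. The precursor ribosomal RNA entry Rn45s took 4.79 to 8.37% of the counts in lung CD45 KO libraries and 8.88 to 16.1% in mature CD45 KO libraries, and the small RNA Rn4.5s took 1.15 to 1.78% in lung CD45 KO libraries and 4.17 to 8.81% in mature CD45 KO libraries. The highest Rn45s share and the lowest Rn4.5s share among the mature CD45 KO libraries were in replicate 1, which was the lowest of its group for Ccr9 and the highest for Lmo4 and Ccr2 below. The lung libraries also differed from the marrow libraries in a sex signature. Xist, the noncoding RNA of the inactive X chromosome, had 52, 88 and 55 counts in lung CD45 KO libraries and 0 in each mature CD45 KO library. Summed counts of 4 Y-linked genes were 0 in each lung CD45 KO library, against 14, 27 and 19 in mature CD45 KO libraries, and the control libraries showed the same split. Tissue and this sex signature cannot be told apart in any result below, with CD45 or without it. Leaving out the X and Y genes before fitting left the number of genes passing at 456, which does not bear on effects of sex on other genes.

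Ptprc itself (chromosome 1) had 153, 112 and 229 CPM in lung CD45 KO libraries and 238, 101 and 88.0 CPM in mature CD45 KO libraries. Control ILC2 had 579 ± 43.7 CPM in lung and 418 ± 148 CPM in marrow (SD, n = 3). The lung and mature KO libraries overlapped, and the difference between them did not pass (log2 fold change 0.24 ± 0.35 SE, adjusted p = 0.688). Here and below, adjusted p-values are from edgeR's quasi-likelihood test, Benjamini-Hochberg adjusted over all genes tested, and a gene passed when this was under 0.05. The ILC2 label was checked against 10 defining genes, of which Ptgdr2 (CRTH2) had 0 counts in all 6 CD45 KO libraries. Their summed level was 9554 to 11055 CPM in lung CD45 KO libraries and 6168 to 7827 CPM in mature CD45 KO libraries.

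Of markers of other cells, 6 eosinophil genes had 12, 0 and 0 counts in lung CD45 KO libraries and 0 in each mature CD45 KO library, with Prg2 and Epx at 0. The 12 monocyte and macrophage genes had 22, 0 and 0 counts in lung CD45 KO libraries and 3, 9 and 1 in mature CD45 KO libraries, with Csf1r at 0 in both groups. All lung counts of both lists were thus in replicate 1 of the CD45 KO, and control lung libraries had 0 of each. Without that library 422 genes passed in the comparison described below, 382 of them shared with the 456 that passed with it, and the genotype difference passed for 3 genes in place of 6. The neutrophil list had 1, 0 and 0 counts in lung CD45 KO libraries and 4, 4 and 8 in mature CD45 KO libraries. In controls it had 0 counts in each lung library and 185, 13 and 10 in marrow libraries, the highest in mature control replicate 1. The erythroid list summed to 0 to 37.2 CPM in lung CD45 KO libraries and 59.6 to 167 CPM in mature CD45 KO libraries. The ILC3 list reached 202 to 279 CPM in lung CD45 KO libraries and 413 to 554 CPM in mature CD45 KO libraries through Ltb, with Il22, Il17a and Il23r at 0. Of the blood progenitor list, Kit and Hlf were higher in lung CD45 KO ILC2, while Cd34 and Gata2 were at 0. Cd48 had 7 counts in lung CD45 KO and 16 in mature CD45 KO libraries and did not pass, and Myb, Mpo and Lmo2 had 0 in lung CD45 KO libraries against 7, 3 and 3 in mature CD45 KO libraries and Meis1 had 1 against 0. The part of these cells in the differences below was not tested. In bulk libraries, fewer cells of a type and less RNA per cell cannot be told apart.

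Without CD45, 456 of the 1858 genes tested (24.5%) differed between lung and mature marrow ILC2. Of these, 277 were higher in lung (14.9% of the genes tested) and 179 were lower (9.63%). The higher genes had a median log2 fold change of 1.96 and the lower genes of -1.40, and 49 of the higher genes but 6 of the lower ones changed by more than 16-fold. For 659 genes (35.5%) the 3 lung libraries did not overlap the 3 mature libraries. Libraries of the same tissue without CD45 correlated at 0.905 to 0.941 across the tested genes, and lung with mature libraries without CD45 at 0.655 to 0.683.

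The tissue difference was present with and without CD45. In controls 476 genes passed (25.6%), of which 280 had more in lung and 196 had less. The contrasts share no library, and 303 genes passed in both with the same sign, 216 higher and 87 lower in lung, which is 66.4% of the genes that passed without CD45 and 63.7% of those that passed in controls. No gene passed in both with opposite signs. Of the genes that passed without CD45, 435 (95.4%) had the same sign in controls, and of those that passed in controls 453 (95.2%) had the same sign without CD45. Across 1840 genes with counts in all 4 groups, the log2 fold changes of the CD45 KO and the control contrast correlated at r = 0.856, a description over genes that are not independent replicates and that were counted in the same libraries.

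**Figure D1:**
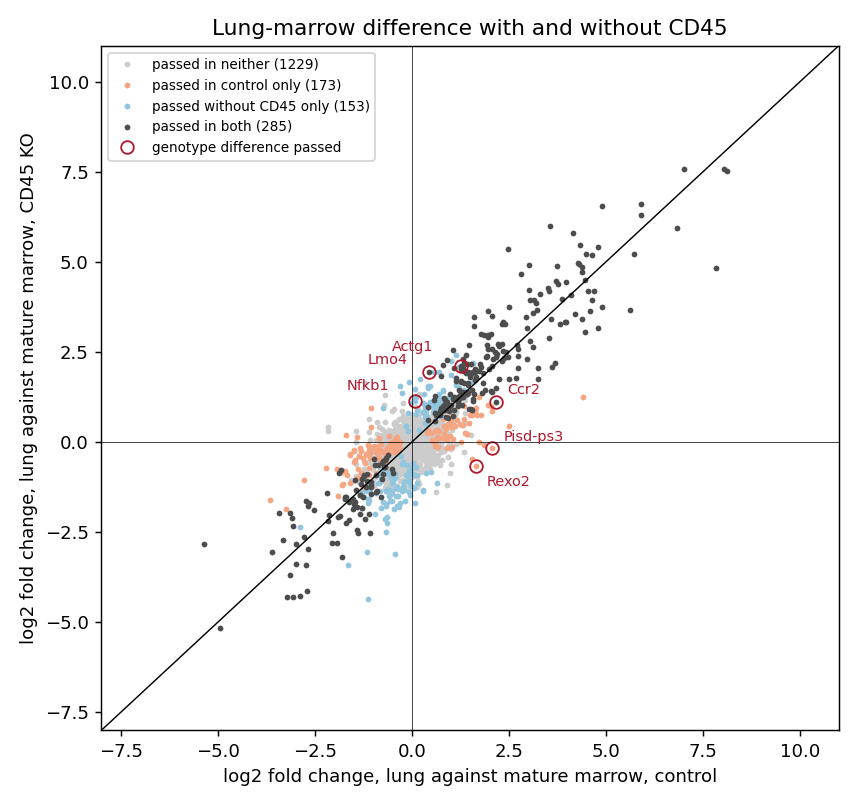
Log2 fold change of lung against mature marrow ILC2 in CD45 KO mice (vertical axis) and in control mice (horizontal axis) for the 1840 tested genes with counts in all 4 groups. Each point is a gene, coloured by the contrasts in which it passed, and the diagonal marks equal changes. The 6 circled genes are those whose tissue difference itself differed between genotypes. Of the genes shown, 285 passed in both contrasts, 153 without CD45 only and 173 in controls only.

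Over 458 genes that passed in controls, the median absolute log2 fold change was 1.21 without CD45 and 1.40 in controls. Over 438 genes that passed without CD45, it was 1.62 without CD45 and 1.25 in controls. Each median was lower in the contrast that had not chosen the genes. A direct test of the difference between the contrasts (CD45 KO minus control) passed for 6 genes, 0.323% of those tested, and 189 genes were under an unadjusted p of 0.05 by edgeR and 121 by DESeq2. The test leaves room for differences it did not call, since the 95% interval of the genotype difference lay inside ± 1 on the log2 scale for 372 of the 1858 genes, and its median width was 2.08. For genes with no count in either mature group, such as Nr4a3, Ccl1 and Cxcl2, the test could not call a difference. The interval for Nr4a3 was -4040 to 4042.

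The members are described below by gene lists, and the counts refer to list members with enough counts to be tested. A gene with counts in lung ILC2 alone enters the tests through that group, so these counts describe the lists and are no support for them. The share to set them against is that over all genes tested, 14.9% higher and 9.63% lower in lung without CD45.

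Immediate-early genes were higher in lung. Of 32 genes listed, 24 were tested. In each genotype 22 were higher in lung and 0 lower, and 21 were higher in both. The median log2 fold change of the 24 was 4.30 without CD45 and 3.96 in controls, against -0.03 and -0.02 over all genes tested. With genes absent from marrow set at their bound it was 4.20 and 3.59. Ier5 and Klf6 did not pass without CD45, with log2 fold changes of 0.71 and 0.52. Any difference in how cells were isolated from lung and from marrow cannot be told apart from tissue, here or in the lists below, and was not tested.

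Nr4a1, an orphan nuclear receptor induced by antigen-receptor and stress signals, had 2823, 3508 and 3400.2 CPM in lung CD45 KO libraries and 11.9, 0 and 35.2 CPM in mature CD45 KO libraries. The lowest lung library was far above the highest mature library. The log2 fold change was 7.57 ± 0.28 (adjusted p = 3.18e-40), and 7.03 in controls. Its relatives Nr4a2 and Nr4a3 had no count in any mature CD45 KO library, and were at least 56.6-fold and at least 132-fold higher in lung, against a floor of 3 counts over the mature group.

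Fosb, a partner of Jun proteins in the AP-1 complex, had 2044, 2392 and 2537 CPM in lung CD45 KO libraries and 0, 0 and 8.80 CPM in mature CD45 KO libraries. The mature value is a single read, so the ratio of 739 has a 95% counting interval of 132 to 29227. Junb, a Jun protein with counts in all libraries, had 3977, 3676 and 3400.2 CPM in lung CD45 KO libraries against 155, 160.0 and 202 CPM in mature CD45 KO libraries, a log2 fold change of 4.40 ± 0.18 (adjusted p = 8.22e-38). Its tissue difference was 3.77 in controls, and the difference between genotypes did not pass (0.62, adjusted p = 0.484).

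Egr1, a zinc-finger factor induced by mitogen signals, had 528, 539.7 and 769 CPM in lung CD45 KO libraries and 11.9, 0 and 79.2 CPM in mature CD45 KO libraries. Control lung ILC2 had 143, 107 and 132 CPM, below every lung CD45 KO library, while the tissue difference in log2 units did not differ detectably between genotypes (4.21 without CD45, 4.55 in controls, adjusted p of the difference 0.935). Myc, a growth regulator, was higher in lung without CD45 by 1.19 (adjusted p = 0.0232) and had a log2 fold change of 0.05 in controls, but the difference between the contrasts did not pass (adjusted p = 0.565).

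Feedback regulators of signalling were higher in lung. Of 8 tested RGS and MAPK feedback genes, 6 were higher and 0 lower without CD45, and the same counts held in controls. Rgs2, a brake on G-protein signalling, had 3379, 3694 and 2739 CPM in lung CD45 KO libraries and 47.7, 8.42 and 0 CPM in mature CD45 KO libraries, a log2 fold change of 7.58 ± 0.28 (adjusted p = 3.18e-40). Dusp1, a phosphatase that shuts off p38 and JNK, had 987, 819 and 729 CPM in lung against 47.7, 8.42 and 26.4 CPM in mature CD45 KO libraries (log2 fold change 4.98 ± 0.32, adjusted p = 9.68e-25). In both genes the groups lay far apart. Gadd45b, a stress-inducible activator of MAP kinases, reached 1919, 1973 and 2064 CPM in lung CD45 KO libraries, while the mature CD45 KO libraries held 3 counts in all, a ratio of 209 (counting interval 71.2 to 1018). Cdkn1a, the p53 target that halts the cell cycle, was at 375, 558 and 283 CPM in lung CD45 KO libraries and at a single read in mature CD45 KO libraries.

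Of 11 tested NF-kB subunits and targets, 7 were higher and 0 lower in lung without CD45, with a median of 1.26. In controls 7 were higher, with a median of 1.73, and 5 were higher in both. Tnfaip3, which encodes the deubiquitinase A20 that ends NF-kB signalling, had 2865, 2596 and 2388 CPM in lung CD45 KO libraries and 143, 67.4 and 141 CPM in mature CD45 KO libraries. No library of either group came near the other. Its log2 fold change was 4.502 ± 0.19 without CD45 (adjusted p = 7.45e-36) and 4.46 in controls. Nfkbia, which encodes the inhibitor IκBα, had 2684, 3089 and 2968 CPM in lung against 715, 387 and 598 CPM in mature CD45 KO libraries, a log2 fold change of 2.39 ± 0.15 (adjusted p = 1.27e-24). Nfkbid, an atypical IκB protein, was higher by 5.22 ± 0.42, at 542, 493 and 526 CPM in lung and 0, 16.8 and 17.6 CPM in mature CD45 KO libraries.

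Cytokines and effector products of ILC2 were higher in lung. Of 20 listed, 11 were tested, and 10 were higher and 0 lower in lung both without CD45 and in controls, the exception being Csf1 (log2 fold change -0.11). The median was 4.84 without CD45 and 4.30 in controls (4.26 and 3.59 with absent genes at their bound).

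Il5, the eosinophil growth factor, had 765, 1321 and 998 CPM in lung CD45 KO libraries and 35.7, 0 and 0 CPM in mature CD45 KO libraries. All 3 mature counts came from replicate 1, and the ratio of 113 has a counting interval of 38.2 to 550.0. Il13, the inducer of mucus and airway hyperreactivity, had 236, 242 and 351 CPM in lung CD45 KO libraries and no count in mature CD45 KO libraries, at least 28.7-fold higher. In control lung it had 88.2, 193 and 35.2 CPM, below each lung CD45 KO library.

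Csf2, which encodes GM-CSF, had 1126, 1247 and 1241 CPM in lung CD45 KO libraries and 35.7, 33.7 and 44.0 CPM in mature CD45 KO libraries (log2 fold change 4.95 ± 0.26, adjusted p = 1.86e-29). Areg, the gene of amphiregulin, a growth factor for epithelium, had 1864, 1861 and 1538 CPM in lung against 35.7, 16.8 and 123 CPM in mature CD45 KO libraries (log2 fold change 4.84 ± 0.25, adjusted p = 1.25e-30). Control marrow held a single library with Areg counts, at 14.9 CPM, so the log2 fold change was 7.84 in controls, and the difference between genotypes did not pass (interval -4.91 to -1.08 before adjustment, adjusted p = 0.168). Il2, at 264, 167 and 121 CPM in lung, had no count in mature CD45 KO libraries and was at least 19.1-fold higher. Calca, which encodes the neuropeptide CGRP, was higher by 3.67 and Lif by 5.20. Arg1, the arginase of ILC2, was higher by 0.80 ± 0.17 (adjusted p = 0.000135), with 793, 837 and 809.6 CPM in lung against 417, 413 and 563 CPM in mature CD45 KO libraries.

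Of 4 tested chemokines 3 were higher and 1 lower in lung, with and without CD45. Cxcl2, a neutrophil attractant, had 1641, 1787 and 1538 CPM in lung CD45 KO libraries and 0 in each mature CD45 KO library, at least 176-fold higher. Ccl1, a ligand of CCR8, had 932, 1284 and 1214 CPM in lung and 0 in each mature CD45 KO library, at least 123-fold higher. Ccl5 went the other way, with 41.7, 65.1 and 0 CPM in lung CD45 KO libraries against 203, 253 and 387 CPM in mature CD45 KO libraries (log2 fold change -2.82 ± 0.43, adjusted p = 7.16e-08). For all 3 genes the groups did not overlap.

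**Figure D2:**
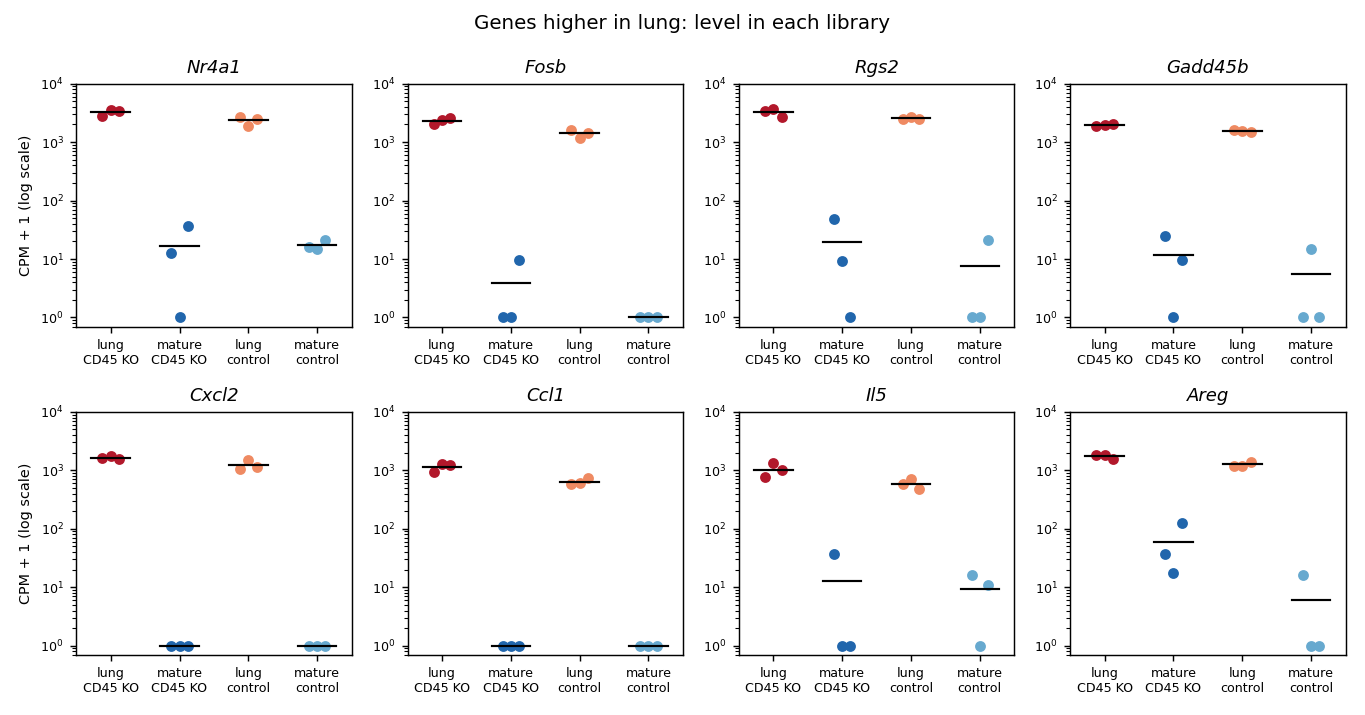
CPM + 1 on a log scale for 8 genes higher in lung ILC2, with 1 point per library and a bar at the group mean, for lung and mature marrow ILC2 of CD45 KO mice and of controls. In every panel the lung libraries of both genotypes lie above the marrow libraries, and the mature CD45 KO libraries have 0 counts of Cxcl2 and Ccl1.

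The regions before the starts of a target of each class are shown so that the elements discussed in this field can be seen next to the values. They are the 250 bases before the start of each gene, from RefSeq on GRCm38.p6, at chr5:90903649-90903898 on the plus strand for Cxcl2 and chr12:55492648-55492897 on the minus strand for Nfkbia, which were higher in lung, and at chr11:58199306-58199555 and chr3:142530086-142530335 on the plus strand for Igtp and Gbp7, interferon-inducible genes that were lower in lung. Capitals mark the kappaB consensus in the first pair and, in the second, the interferon-stimulated response element GAAANNGAAA and the gamma-activated site TTCNNNGAA, each searched on both strands.
Cxcl2: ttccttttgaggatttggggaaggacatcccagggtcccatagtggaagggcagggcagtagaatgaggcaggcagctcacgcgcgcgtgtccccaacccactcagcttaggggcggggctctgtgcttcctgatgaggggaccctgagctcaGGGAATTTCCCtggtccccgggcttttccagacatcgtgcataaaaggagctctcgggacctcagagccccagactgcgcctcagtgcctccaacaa
Nfkbia: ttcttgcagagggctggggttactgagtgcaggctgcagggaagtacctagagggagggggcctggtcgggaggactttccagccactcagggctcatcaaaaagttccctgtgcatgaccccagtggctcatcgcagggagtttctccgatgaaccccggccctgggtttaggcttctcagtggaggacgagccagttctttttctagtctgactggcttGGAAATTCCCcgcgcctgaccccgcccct
Igtp: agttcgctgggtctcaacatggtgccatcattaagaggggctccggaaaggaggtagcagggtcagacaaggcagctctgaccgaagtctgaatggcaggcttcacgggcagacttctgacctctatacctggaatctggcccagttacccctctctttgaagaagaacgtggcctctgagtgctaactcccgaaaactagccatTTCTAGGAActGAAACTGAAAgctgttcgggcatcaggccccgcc
Gbp7: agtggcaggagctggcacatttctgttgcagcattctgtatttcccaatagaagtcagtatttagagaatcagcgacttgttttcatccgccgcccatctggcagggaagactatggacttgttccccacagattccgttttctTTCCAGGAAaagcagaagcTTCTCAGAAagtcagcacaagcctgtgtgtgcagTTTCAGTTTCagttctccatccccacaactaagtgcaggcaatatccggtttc
In Cxcl2 a pair of overlapping kappaB matches forms 1 run. Over the 250 bases before the start of 27025 genes, 3.75% hold a kappaB match, 3.04% an interferon-stimulated response element and 7.18% a gamma-activated site. RefSeq windows matched 1434 of the 1858 tested genes by symbol, so the shares were not compared between gene lists. Over those 1434 genes the shares were 5.65%, 3.14% and 5.51%, in the same order. The genes shown were picked as examples, so their matches do not speak for the other members of their lists. These matches are letters in a sequence, and binding was not measured.

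Interferon-inducible genes were lower in lung. Of 50 listed, 21 were tested, and 17 were lower and 0 higher in lung without CD45, against 14 lower and 0 higher in controls, 13 of them lower in both. The median log2 fold change was -1.85 without CD45 and -1.26 in controls. Fitting only the libraries of the contrast gave 11 lower members without CD45, and 0 higher.

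Immunity-related GTPases, which attack vacuoles of intracellular parasites in the mouse and are induced by interferon, were among the genes of largest change. Igtp, whose upstream bases above hold both interferon motifs, had 13.9, 18.6 and 13.5 CPM in lung CD45 KO libraries and 71.5, 211 and 238 CPM in mature CD45 KO libraries, a log2 fold change of -3.42 ± 0.54 (adjusted p = 1.40e-07). Ifi47 had 0, 18.6 and 54.0 CPM in lung against 298, 269.5 and 220.0 CPM in mature CD45 KO libraries (-3.38 ± 0.44, adjusted p = 5.52e-10). Neither gene showed overlap between the groups. Tgtp2 had 55.6, 9.31 and 27.0 CPM in lung against 441, 514 and 695 CPM in mature CD45 KO libraries (-4.27 ± 0.36, adjusted p = 7.45e-18), and Tgtp1 was lower by a log2 fold change of -3.68. Tgtp1 and Tgtp2 are near-identical copies, so how their counts divide is uncertain.

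Gbp7, a guanylate-binding protein whose upstream bases above also hold both motifs, had 13.9, 74.4 and 121 CPM in lung CD45 KO libraries and 524, 320.1 and 422 CPM in mature CD45 KO libraries, a log2 fold change of -2.52 ± 0.32 (adjusted p = 1.55e-10). In controls it was -1.09, and the difference between genotypes was -1.43 with an interval of -2.39 to -0.48 before adjustment (adjusted p = 0.172). Irf1, a transcription factor of the interferon response, had 55.6, 65.1 and 13.5 CPM in lung against 274, 168 and 185 CPM in mature CD45 KO libraries (-2.07 ± 0.41, adjusted p = 2.07e-05). Ifngr1, a chain of the interferon-γ receptor, went the opposite way, with 793, 726 and 958 CPM in lung and 155, 84.2 and 35.2 CPM in mature CD45 KO libraries (3.23 ± 0.29, adjusted p = 1.91e-16). Ly6e, an interferon-inducible membrane protein, had a log2 fold change of 0.11 and did not pass.

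Of 14 tested antigen presentation genes, 6 were lower and 0 higher in lung without CD45, and 4 were lower in controls. They were Cd74, Psmb9, Tap1, Nlrc5, Psmb10 and H2-Oa. Fitting only the libraries of the contrast left 2 of them. Cd74, the invariant chain of class II molecules, had 0, 0 and 27.0 CPM in lung CD45 KO libraries against 107, 202 and 211 CPM in mature CD45 KO libraries, with a ratio of 0.0438 (counting interval 0.00518 to 0.166). The classical class I genes did not pass. H2-K1 had 2809, 2689 and 2523 CPM in lung and 3086, 3336 and 3299 CPM in mature CD45 KO libraries, a log2 fold change of -0.28 (adjusted p = 0.0761), and H2-D1 one of -0.12.

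Genes of migration and tissue residence differed in both directions. Of 7 tested chemokine receptor and egress genes, 4 were higher and 2 lower in lung, in both genotypes. Cd69, which holds lymphocytes in tissue by blocking the sphingosine-1-phosphate receptor, had 473, 372 and 337 CPM in lung CD45 KO libraries and 23.8, 16.8 and 52.8 CPM in mature CD45 KO libraries (log2 fold change 3.58 ± 0.39, adjusted p = 7.44e-13). Klf2, the factor that drives that receptor and exit from tissue, had 0, 0 and 13.5 CPM in lung against 119, 194 and 238 CPM in mature CD45 KO libraries. This is a single read in lung, and the ratio of 0.0208 has a counting interval of 0.000518 to 0.120. Cxcr4, the receptor for the marrow chemokine CXCL12, was higher in lung, with 264, 223 and 324 CPM against 71.5, 50.5 and 26.4 CPM in mature CD45 KO libraries (2.45 ± 0.37, adjusted p = 5.72e-08).

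Ccr9, the receptor for the gut chemokine CCL25, had 83.4, 102 and 27.0 CPM in lung CD45 KO libraries and 191, 665 and 704 CPM in mature CD45 KO libraries (-2.84 ± 0.33, adjusted p = 8.34e-12). The groups did not overlap, and mature replicate 1 was the lowest of its group. Controls had 44.1, 21.4 and 0 CPM in lung and 969, 833 and 842 CPM in marrow, a log2 fold change of -5.35. The difference between genotypes was 2.51 (interval 1.11 to 3.91) and did not pass after adjustment (0.0754). It passed in 4 of 21 alternatives: the DESeq2 Wald test, and without mature CD45 KO replicate 2, mature CD45 KO replicate 3 or lung control replicate 1.

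Among adhesion genes, 2 were higher and 1 lower of 11 tested without CD45, against 4 and 2 in controls. Without CD45 this was near the share of all genes tested that passed, 24.5%. Cd44, the hyaluronan receptor, had 639.7, 782 and 472 CPM in lung CD45 KO libraries and 83.4, 75.8 and 96.8 CPM in mature CD45 KO libraries (2.90 ± 0.26, adjusted p = 9.46e-17). Itga4, the α4 chain of integrins that bind VCAM-1, had 97.3, 112 and 108 CPM in lung against 405, 278 and 273 CPM in mature CD45 KO libraries (-1.54 ± 0.30, adjusted p = 1.36e-05). Both pairs of groups were separate.

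**Figure D3:**
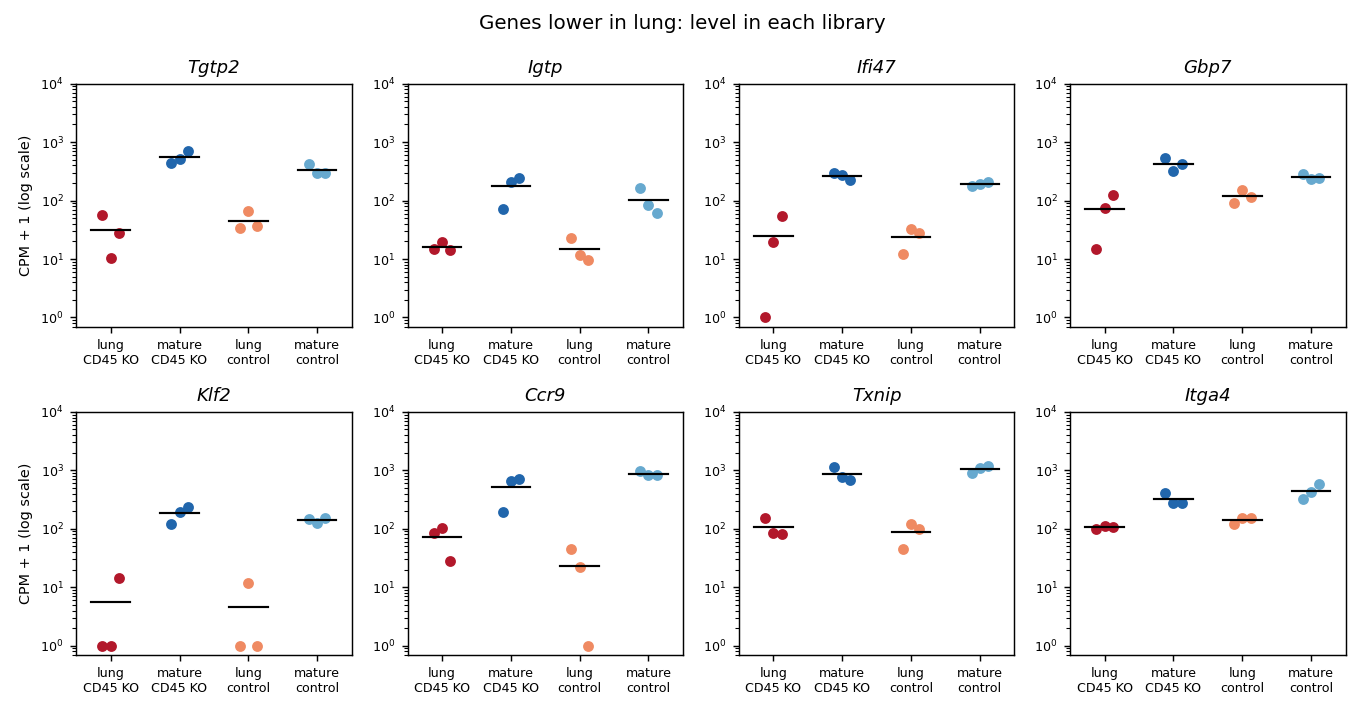
CPM + 1 on a log scale for 8 genes lower in lung ILC2, with 1 point per library and a bar at the group mean, for lung and mature marrow ILC2 of CD45 KO mice and of controls. Mature CD45 KO libraries lie above lung CD45 KO libraries in every panel, and Ccr9 in mature CD45 KO replicate 1 (191 CPM) lies nearest to the lung values.

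Receptors that define ILC2 were split. Il1rl1, the IL-33 receptor ST2, had 987, 1498 and 1389.8 CPM in lung CD45 KO libraries and 1751, 1087 and 1091 CPM in mature CD45 KO libraries, with overlapping groups and a log2 fold change of 0.02 (adjusted p = 0.937). Il7r and Il2ra, the receptors for IL-7 and IL-2, had 0.25 and 0.27 and did not pass. Il17rb, the IL-25 receptor, was lower in lung, with 55.6, 65.1 and 67.5 CPM against 179, 126 and 229 CPM in mature CD45 KO libraries (-1.47 ± 0.41, adjusted p = 0.00343). Il4ra and Il2rb were higher in lung by 2.18 and 2.09.

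Icos, a costimulatory receptor of ILC2, had 1377, 1266 and 1201 CPM in lung CD45 KO libraries and 167, 109.5 and 229 CPM in mature CD45 KO libraries (2.92 ± 0.20, adjusted p = 1.54e-22). Kit, the stem cell factor receptor, had 501, 456 and 432 CPM in lung against 107, 50.5 and 26.4 CPM in mature CD45 KO libraries (2.99 ± 0.31, adjusted p = 5.16e-14). The groups were separate for both. Pdcd1, which encodes the inhibitory receptor PD-1, was higher by 3.74 ± 0.57, at 139, 177 and 243 CPM in lung and 11.9, 16.8 and 8.80 CPM in mature CD45 KO libraries.

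Of 17 tested lineage transcription factors, 7 were higher and 1 lower in lung without CD45, against 5 and 2 in controls. Gata3, the master regulator of ILC2, had 2934, 3555 and 2901 CPM in lung CD45 KO libraries and 2347, 1828 and 1496 CPM in mature CD45 KO libraries (0.75 ± 0.13, adjusted p = 3.34e-06). Its tissue difference was 0.63 in controls, and the difference between genotypes, 0.12, had an interval of -0.26 to 0.50. Rora, which encodes RORα, had 1752, 1638 and 1673 CPM in lung against 548, 168 and 317 CPM in mature CD45 KO libraries (2.36 ± 0.19, adjusted p = 1.71e-19), and its genotype difference of 0.18 had an interval of -0.38 to 0.75.

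Bhlhe40, a repressor that supports cytokine production in lymphocytes, had 959.6, 856 and 864 CPM in lung CD45 KO libraries and 35.7, 101 and 96.8 CPM in mature CD45 KO libraries (3.42 ± 0.25, adjusted p = 1.65e-21). Id2, the inhibitor of E proteins that all ILC need, was lower in lung, with 709, 754 and 621 CPM against 1132, 1482 and 1373 CPM in mature CD45 KO libraries (-0.94 ± 0.15, adjusted p = 3.57e-07). No library of one tissue reached the range of the other for these factors. Ikzf3, which encodes Aiolos, was higher by 1.67 without CD45 (adjusted p = 0.000469) and had -0.06 in controls, and the genotype difference did not pass (adjusted p = 0.168).

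Src-family and proximal signalling genes, among them kinases and adaptors on which CD45 acts in lymphocytes, were tested in 16 cases. In each genotype 3 were higher and 1 lower in lung, but only 2 genes passed in both. The counts were near the share of all genes tested that passed, 24.5% without CD45 and 25.6% in controls. Jak2, a cytokine receptor kinase, was higher by 1.04 and the phosphatase Ptpn22 was also higher, at an adjusted p of 0.0334, and Prkcq was lower by a log2 fold change of -1.59. Neither Jak2 nor Ptpn22 passed in controls (log2 fold changes 0.38 and 0.77), and their genotype differences did not pass (adjusted p = 0.565 and 0.898). Ptpn22 lost its pass without CD45 in 5 of 13 alternatives. Fyn, Csk, Lat and Vav1 did not pass, with log2 fold changes of 0.23, -0.09, -0.10 and -0.10.

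Of 27 tested cytoskeleton, annexin and S100 genes, 13 were higher and 0 lower in lung without CD45, and 14 were higher in controls. S100a4, a calcium-binding protein of motile cells, had 1238, 1312 and 1268 CPM in lung CD45 KO libraries and 381, 413 and 326 CPM in mature CD45 KO libraries (1.77 ± 0.17, adjusted p = 3.28e-15). Lgals1, which encodes galectin-1, had 389, 363 and 256 CPM in lung against 59.6, 16.8 and 8.80 CPM in mature CD45 KO libraries (3.67 ± 0.40, adjusted p = 3.77e-13). Vim, the intermediate filament vimentin, was higher by 1.76 without CD45 and 3.26 in controls, a genotype difference of -1.51 with an adjusted p of 0.0531. Actb, the other cytoplasmic actin, had 0.25 and did not pass.

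**Figure D4:**
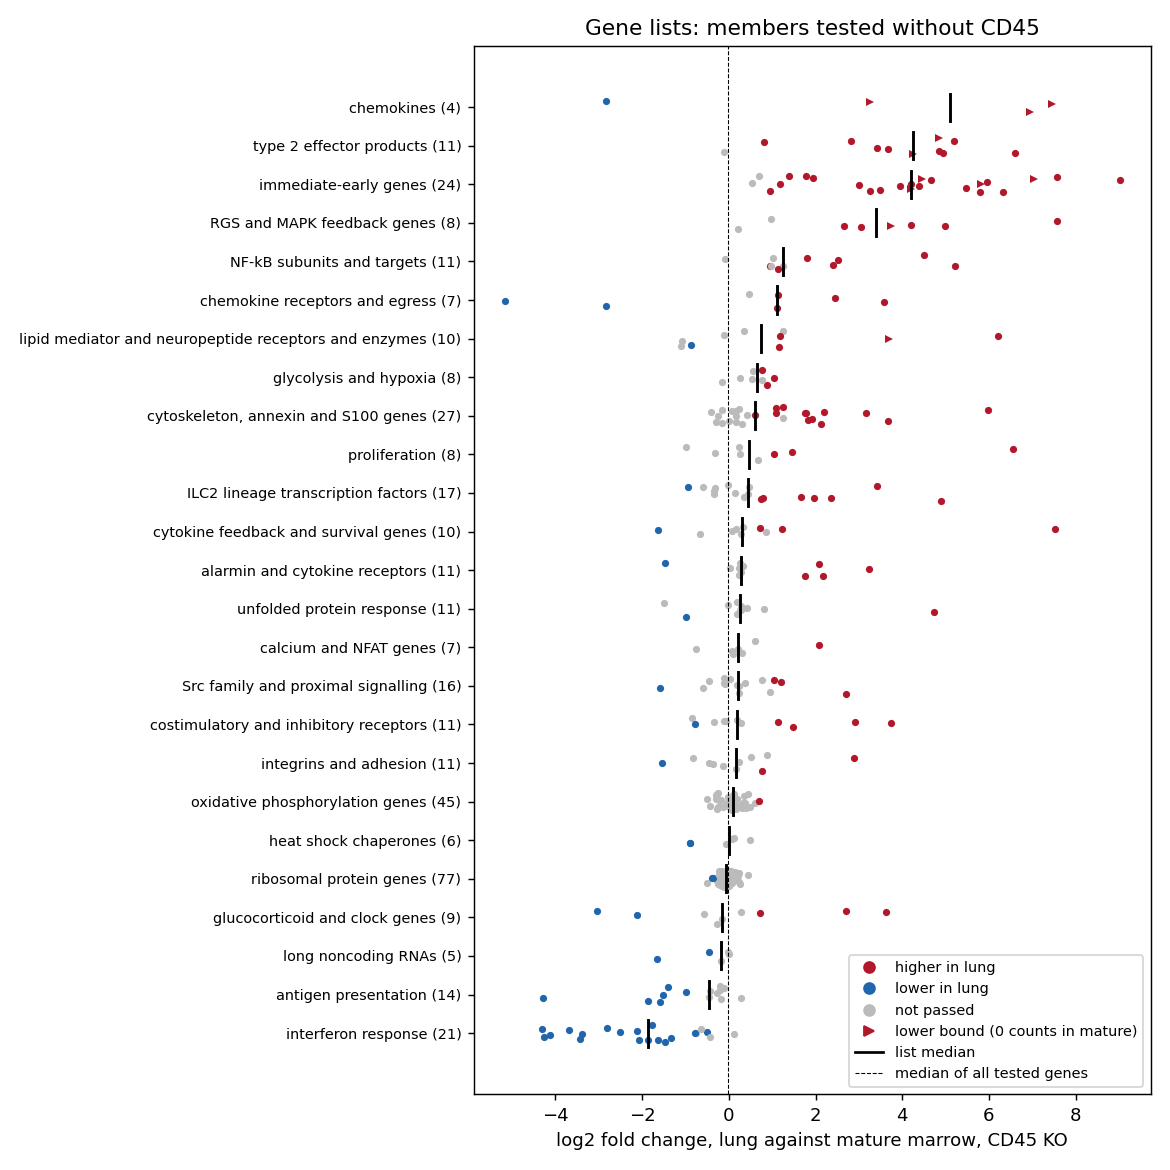
Log2 fold change of lung against mature marrow ILC2 without CD45 for the tested members of each gene list, with 1 point per gene, coloured by whether it was higher, lower or did not pass. Arrowheads are lower bounds for genes with 0 counts in mature CD45 KO libraries, black bars are list medians and the dashed line is the median of all genes tested. Chemokines, effector products and immediate-early genes lie highest and the interferon response lowest.

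Of 8 tested glycolysis and hypoxia genes, Ldha, Gapdh and Pkm were higher in lung without CD45, and 0 passed in controls. Ldha, lactate dehydrogenase A, had 821, 996 and 904 CPM in lung CD45 KO libraries and 488, 413 and 431 CPM in mature CD45 KO libraries (1.05 ± 0.17, adjusted p = 4.04e-07), against 0.31 in controls. Its genotype difference of 0.74 did not pass (adjusted p = 0.221). Pkm lost its pass in 4 of 15 alternatives. Of 45 oxidative phosphorylation genes 1 passed without CD45 and 4 in controls.

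Ribosomal protein genes passed in different numbers in the contrasts. Of 77 tested, 2 were lower in lung without CD45 and 41 in controls, and 0 were higher in either. The medians were -0.07 without CD45 and -0.34 in controls. The genotype difference passed for 0 of the 77, and its 95% interval lay inside ± 1 for 74 of them. Rpl8 had 1627, 2103 and 2024 CPM in lung CD45 KO libraries and 2168, 2805 and 2543 CPM in mature CD45 KO libraries (-0.38 ± 0.13, adjusted p = 0.0180), with separate groups, and lost its pass in 6 of 15 alternatives. These genes have many near-identical pseudogenes, so their counts are uncertain.

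Members of the remaining lists passed in varying numbers without CD45, to be set against 24.5% of all genes tested. Of 9 tested glucocorticoid and clock genes, Cebpb, Per1 and Nr3c1 were higher in lung and Txnip and Ddit4 lower, and the same 5 passed with the same signs in controls. Of 10 lipid mediator and neuropeptide genes 4 were higher (Ptgs2, Ramp3, Ramp1 and Ptgir) and Alox5 was lower, by a log2 fold change of -0.87. Of 11 costimulatory and inhibitory receptors 4 were higher (Icos, Pdcd1, Tnfrsf18 and Thy1) and Ly6a was lower, against 4 higher and 4 lower in controls. Of 10 cytokine feedback and survival genes 3 were higher (Gadd45b, Pim1 and Socs2) and Socs1, an inhibitor of JAK kinases, was lower by a log2 fold change of -1.63. Socs2 had overlapping groups and lost its pass in 8 of 15 alternatives. Of 8 genes on the proliferation list 3 were higher, Hmgb2, H2afz and Cdkn1a, the last of which halts the cell cycle. Of 7 calcium and NFAT genes Orai1 was higher, and of 11 unfolded protein response genes Ppp1r15a was higher and Dnajc3 lower. Of 6 heat shock chaperones Hsp90aa1 and Hspd1 were lower, and Hspd1 lost its pass in 12 of 15 alternatives. Of 5 long noncoding RNAs Kcnq1ot1 and Malat1 were lower, and Malat1 had overlapping groups and lost its pass in 6 of 15 alternatives. H2afz and Dnajc3 lost theirs in 2 of 15, Hsp90aa1 in 1 of 15 and Orai1 in 1 of 13.

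Txnip encodes a thioredoxin-binding arrestin that responds to glucose. It had 153, 83.7 and 81.0 CPM in lung CD45 KO libraries and 1144, 783 and 686 CPM in mature CD45 KO libraries (-3.04 ± 0.26, adjusted p = 4.44e-18). Neb, which encodes the muscle protein nebulin, had 27.8, 18.6 and 13.5 CPM in lung against 453, 202 and 185 CPM in mature CD45 KO libraries (-3.66 ± 0.49, adjusted p = 1.55e-09). Ms4a6b, a tetraspanning membrane protein of lymphocytes, was lower by a log2 fold change of -2.96. Pxdc1 had 389, 279 and 297 CPM in lung and no count in mature CD45 KO libraries, at least 33.3-fold higher. Mature control marrow held 14.9, 83.3 and 20.1 CPM, and the genotype difference of Pxdc1 did not pass (adjusted p = 0.0872). Ramp3, a coreceptor for calcitonin-family peptides, had 473, 539.7 and 675 CPM in lung CD45 KO libraries against 2 counts in all in mature CD45 KO libraries, a ratio of 88.6 (counting interval 24.1 to 739).

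For 6 genes the tissue difference itself differed between genotypes. Lmo4, a LIM-only transcriptional adaptor, had 2531, 2792 and 2618 CPM in lung CD45 KO libraries and 1025, 505 and 581 CPM in mature CD45 KO libraries (1.96 ± 0.16). In controls it had 1532, 1155 and 1741 CPM in lung and 1103, 1041 and 1113 CPM in marrow (0.45). Every lung CD45 KO library was above every other library, and every mature CD45 KO library was below every control marrow library. The genotype difference of 1.51 (interval 1.06 to 1.96) had an adjusted p of 3.82e-06, and passed in all 21 alternatives, including those without mature CD45 KO replicate 1, which was the highest of its group.

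Actg1, cytoplasmic γ-actin, had 3838, 3741 and 3400.2 CPM in lung CD45 KO libraries and 584, 909.7 and 985 CPM in mature CD45 KO libraries, against 1808, 2118 and 1996 CPM in control lung and 939, 625 and 892 CPM in control marrow. Lung values were higher without CD45 and marrow values overlapped. The tissue difference was 2.12 without CD45 and 1.26 in controls, a genotype difference of 0.86 (interval 0.43 to 1.28, adjusted p = 0.0461).

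Nfkb1, the NF-kB subunit p50 and its precursor, had 765, 763 and 769 CPM in lung CD45 KO libraries and 369, 320.1 and 361 CPM in mature CD45 KO libraries (1.13 ± 0.18). In controls it had 429.9, 567 and 466 CPM in lung and 462, 444 and 471 CPM in marrow (0.08). The genotype difference was 1.05 (interval 0.53 to 1.58, adjusted p = 0.0461), and Nfkb1 was the 1 gene of the 153 that passed without CD45 alone whose genotype difference passed as well.

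Ccr2, the receptor for monocyte chemoattractants, was higher in lung in both genotypes. It had 1363, 1749 and 1565 CPM in lung CD45 KO libraries and 1072, 539 and 616 CPM in mature CD45 KO libraries (1.12 ± 0.17), against 1609, 1455 and 1715 CPM in control lung and 343, 291 and 401 CPM in control marrow (2.18). Lung values overlapped between genotypes, and mature CD45 KO values, highest in replicate 1, all exceeded control marrow. The genotype difference was -1.06 (interval -1.59 to -0.53, adjusted p = 0.0461).

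Rexo2, an oligoribonuclease, had 125, 93.1 and 54.0 CPM in lung CD45 KO libraries and 119, 168 and 141 CPM in mature CD45 KO libraries, against 143, 149.7 and 149 CPM in control lung and 59.6, 27.8 and 50.1 CPM in control marrow. It passed in controls (1.65) and not without CD45 (-0.67), with a genotype difference of -2.32 (interval -3.45 to -1.19, adjusted p = 0.0461). Pisd-ps3 is annotated as a pseudogene of a phosphatidylserine decarboxylase with no position in the annotation used, so its counts are uncertain. It had 125, 139.6 and 108 CPM in lung CD45 KO libraries and 107, 118 and 194 CPM in mature CD45 KO libraries, against 419, 310.2 and 299 CPM in control lung and 44.7, 83.3 and 100.3 CPM in control marrow, a genotype difference of -2.25 (interval -3.19 to -1.31, adjusted p = 0.00815).

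**Figure D5:**
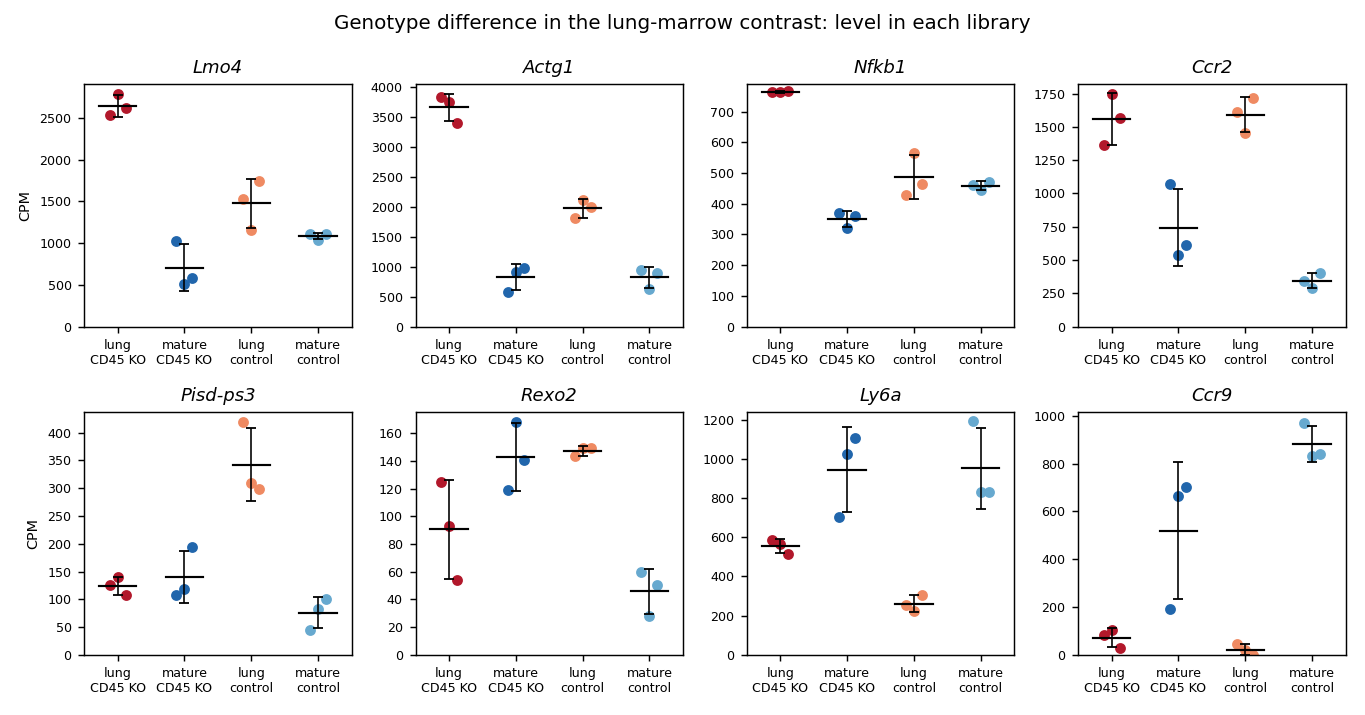
CPM per library, with group mean and SD, for the 6 genes whose tissue difference differed between genotypes and for Ly6a and Ccr9, which did not pass (adjusted p of 0.0531 and 0.0754). Lmo4 and Actg1 are highest in lung ILC2 without CD45, Nfkb1 has separate tissue groups without CD45 and overlapping ones in controls, and Ccr9 in mature CD45 KO replicate 1 lies below the other mature libraries.

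Lmo4 was the 1 gene of the 6 that passed in all 21 alternatives. Pisd-ps3 lost its pass in 3 of 20, and Ccr2, Nfkb1, Actg1 and Rexo2 in 16, 14, 12 and 12 of the 20 or 21 run. Without mature control replicate 1 only Lmo4 remained of the 6, without mature CD45 KO replicate 1 there were 9 genes, 4 of them among the 6, and without mature CD45 KO replicate 3 there were 13.

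The 153 genes that passed without CD45 alone, 61 higher and 92 lower in lung, and the 173 that passed in controls alone are therefore mostly not shown to differ between genotypes. Of the 153, 132 had the same sign in controls and 42 of those were under an unadjusted p of 0.05 there. Tnfrsf18, which encodes the costimulatory receptor GITR, had 431, 623 and 634 CPM in lung CD45 KO libraries and 155, 236 and 202 CPM in mature CD45 KO libraries (1.49 ± 0.22, adjusted p = 3.90e-08), with 0.43 in controls. Its groups were separate without CD45, and its genotype difference of 1.07 did not pass (adjusted p = 0.147). Ifi209, an interferon-inducible DNA-sensor family member, had 0, 27.9 and 0 CPM in lung against 131, 109.5 and 96.8 CPM in mature CD45 KO libraries, a ratio of 0.107 (counting interval 0.0210 to 0.339), and its genotype difference of -2.68 did not pass either (adjusted p = 0.221).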

How the data were processed

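The deposited table holds raw counts of reads or molecules per gene for 18 libraries of 200 sorted cells per the labels, made by the authors with the aligner STAR and the mouse build mm10, per the submitters' processing notes, which give no version. The sources used here do not name the counting tool or its use of strand. Of 24781 entries, 11836 had no count in any library.

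Counts were tested with edgeR 4.0.16 (quasi-likelihood test, R 4.3.3, limma 3.58.1) on 6 group means over all 18 libraries, with TMM scaling and filterByExpr by group at a minimum count of 10, which left 1916 genes, 1858 of them outside chromosomes X and Y. P-values were Benjamini-Hochberg adjusted over the 1916 and passed under 0.05. Standard errors were derived from the fold change and its F statistic. Levels are CPM. The scripts were tested on simulated data. Total counts of 68077 to 122250 in the 6 CD45 KO libraries limit precision for low genes, and intervals and floors of 3 counts cover counting error only, at 95%. Positions came from an annotation of GRCm38.

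Alternatives were DESeq2 1.42.0 (Wald test, and its size factors), other filters, only the libraries of a contrast, a replicate block, leaving out X and Y genes or the Rn45s and Rn4.5s entries, thinning all libraries to 68077 counts, and leaving out each library. Named genes were the 10 higher and 10 lower genes of largest change with separate groups, a panel of ILC2 genes, up to 4 passing members per list, up to 8 per direction whose difference between genotypes passed, and up to 5 per direction that passed without CD45 alone. Genes named because they did not pass were chosen after their values were seen. The members and lists were chosen with earlier results of these data known. Results for some genes are not reported here.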

Additional observations from a re-analysis of the deposited data

Results flagged for a closer look

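The tissue difference itself differed between genotypes for 6 genes, by edgeR's test of the difference between the contrasts (CD45 KO minus control, log2 scale). It was 1.51 for Lmo4, 1.05 for Nfkb1 and 0.86 for Actg1, and -1.06 for Ccr2, -2.25 for Pisd-ps3 and -2.32 for Rexo2. In data outside the comparison, the X-linked Xist had 195 counts over the 3 lung CD45 KO libraries and 0 over the 3 mature CD45 KO libraries. The 4 Y-linked genes had 0 counts over the 3 lung CD45 KO libraries and 60 over the 3 mature CD45 KO libraries.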

How the results depend on the processing

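The number of genes that passed without CD45 was 351 to 514 over the alternatives (351 with the DESeq2 Wald test and 351 with only the libraries of the contrast) and 382 to 449 with a library left out. The number shared with controls was 229 to 304, and 254 to 308 with a library left out. The number whose tissue difference differed between genotypes was 6, against 10 with the DESeq2 Wald test, 2 with only the libraries of the contrast and 1 with thinned libraries, and 1 to 13 with a library left out. It was 1 without mature control replicate 1 and 13 without mature CD45 KO replicate 3. It was 2 without mature control replicate 3 or lung CD45 KO replicate 3, and 3 without lung control replicate 2, lung control replicate 3 or lung CD45 KO replicate 1. The cause was not tested. Same-numbered libraries correlated at -0.0494 to 0.0226 in their deviations from group means, so the numbers do not pair the samples. With the replicate block 450 genes passed without CD45, 474 in controls, 301 in both and 9 for the genotype difference. Signs turned for values near 0. The tissue difference without CD45 was -0.0230 to 0.756 for Ptprc (lowest without lung CD45 KO replicate 3) and -0.279 to 0.156 for Pisd-ps3 (highest without mature CD45 KO replicate 3) with a library left out. For Il1rl1 it was -0.0135 with only the libraries of the contrast, -0.0316 with thinned libraries, and -0.0923 to 0.287 with a library left out, lowest without lung CD45 KO replicate 2. The genotype difference was -0.0297 to 0.307 for Gata3 with a library left out, lowest without mature CD45 KO replicate 3. For Tnfaip3 it was -0.0706 with no filter and -0.247 to 0.392 with a library left out, lowest without mature CD45 KO replicate 2. Depth limits low genes, and at 3 libraries a group most genotype differences are measured no closer than ± 1.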
